A study of Mus musculus with 4 samples.

Results

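Gbp5-high neutrophils are tumour neutrophils that carry the transcript of Gbp5, a guanylate-binding protein, without a strong type I interferon, hypoxia or granule signature. They were chosen by transcript counts in single cells, with every threshold on unique molecular identifiers (UMIs, the molecules counted per gene and cell). A cell counted as a neutrophil when at least 2 of Csf3r, Hdc, G0s2, Cxcr2, Il1r2 and Mmp9 had a UMI, C1qa, C1qb and C1qc together had at most 2, and Cd3d, Cd3e and Cd3g had 0. A neutrophil was kept when Gbp5 had 2 or more UMIs, Ifit1, Ifit2, Ifit3 and Rsad2 together had under 5, Hilpda had under 3, and Ly6g, Mmp8, Ngp, Camp and Ltf together had under 3. The rule found 1008 cells among 17444 neutrophils and 36287 cells that passed limits of 200 or more genes and less than 10% mitochondrial UMIs. Because measured values chose the cells, their Gbp5 level and their contrast with other neutrophils are descriptions.

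The cells came from CD45+ leukocytes sorted from mammary tumours of 4 treatment groups, with 1 library of the 3' droplet kit per group. In every group female Balb/c hosts bore 2153L, a transplanted tumour from a genetically engineered mouse model, in the mammary fat pad. Treatment lasted 8 days and consisted of vehicle, 150 mg/kg ORIN1001, 20 mg/kg docetaxel, or the same doses of the 2 drugs together (the combination). ORIN1001 blocks the RNase of IRE1α, which splices Xbp1 mRNA under stress of the endoplasmic reticulum. Docetaxel, a taxane, freezes microtubules in the assembled state. Barcodes numbered 8464 to 10362 per library and UMIs 64257802 to 86383509. There were no replicates, and how many mice a library represents is not stated in the sources used here. No test was therefore run, and the 95% intervals, exact Poisson for ratios and Clopper-Pearson for shares, cover counting error only. A gene is called higher or lower when the ratio of its summed UMIs per 1e6 UMIs of the class (CPM) is at least 1.5-fold and the interval of the log2 ratio leaves out 0. Where 4 values follow each other, they are in the order vehicle, ORIN1001, docetaxel and combination, and where 3 ratios over vehicle do, in that order of the treated libraries.

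Interferon-gamma acts through its receptor, the kinases JAK1 and JAK2, and palindromic GAS elements in promoters. Its targets include Irf1, the guanylate-binding proteins (GBPs) and immunity-related GTPases that attack pathogen vacuoles and promote inflammasome activity, MHC class I genes, and the chemokine gene Cxcl10. Neutrophils respond to it and to type I interferons, which share many targets, and tumour necrosis factor and Toll-like receptor signals add NF-kappaB targets such as Icam1 and Tnf.

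The promoters are shown of Gbp5, which the rule used, and of Cxcl10, Gbp2b and Gbp2, the 3 leading genes called higher in these cells than in Gbp5-low neutrophils, those that pass every other limit with 0 or 1 Gbp5 UMI. The RefSeq windows of 250 bases before the annotated start (GRCm38.p6) were searched on both strands for TTCNNNGAA, the core of a GAS element, and AANNGAAA, the core of an interferon-stimulated response element, whose reverse reads TTTCNNTT. Capitals mark the matches. The windows are chr3:142496684-142496933 on the plus strand for Gbp5, chr5:92348890-92349139 on the minus strand for Cxcl10, chr3:142594597-142594846 on the plus strand for Gbp2b, and chr3:142620413-142620662 on the plus strand for Gbp2.
Gbp5: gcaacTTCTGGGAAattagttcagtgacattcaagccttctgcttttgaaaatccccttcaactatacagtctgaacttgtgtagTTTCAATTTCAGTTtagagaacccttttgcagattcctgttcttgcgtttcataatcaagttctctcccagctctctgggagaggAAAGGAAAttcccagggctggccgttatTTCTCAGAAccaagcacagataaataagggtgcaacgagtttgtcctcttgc
Cxcl10: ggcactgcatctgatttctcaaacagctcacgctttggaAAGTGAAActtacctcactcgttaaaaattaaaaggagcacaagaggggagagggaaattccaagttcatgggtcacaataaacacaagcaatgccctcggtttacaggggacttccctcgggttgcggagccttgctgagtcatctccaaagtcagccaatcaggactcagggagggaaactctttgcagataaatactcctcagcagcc
Gbp2b: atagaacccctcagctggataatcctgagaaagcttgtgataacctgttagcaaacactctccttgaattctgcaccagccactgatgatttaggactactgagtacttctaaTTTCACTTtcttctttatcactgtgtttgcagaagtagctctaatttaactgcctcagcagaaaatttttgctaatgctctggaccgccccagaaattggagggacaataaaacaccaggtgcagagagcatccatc
Gbp2: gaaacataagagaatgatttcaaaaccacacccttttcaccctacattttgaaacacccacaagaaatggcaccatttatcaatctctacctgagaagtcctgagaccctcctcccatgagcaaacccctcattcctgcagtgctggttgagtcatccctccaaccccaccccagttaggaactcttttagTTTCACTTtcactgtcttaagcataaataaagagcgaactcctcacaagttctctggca
The Gbp5 window held TTCNNNGAA with first bases at -245 and -52, AANNGAAA at -80, and 2 overlapping reverse matches at -165 and -159. Cxcl10 held AANNGAAA at -211, and Gbp2b and Gbp2 held its reverse at -137 and -59. TTCNNNGAA was found in 7.02% and AANNGAAA in 21.3% of 32851 promoter windows of this length. Of the genes called higher in Gbp5-high cells in all 4 libraries, 60 had at least 1 promoter window. In any of their windows, 11 of these genes (18.3%) held the first and 24 (40.0%) the second. Some genes have several windows, so shares per gene and shares per window are unlike measures and were not compared. A match of letters describes the window and does not show binding.

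The cells carried neutrophil transcripts that the rule did not use. S100a8 stood at 15046 CPM in vehicle, 17738 under ORIN1001, 8085 under docetaxel and 5207 under the combination. The 10 neutrophil markers outside the rule, S100a8 among them, summed to 58051, 63399.5, 33819.5 and 25332 CPM. In Gbp5-low neutrophils they summed to more in every library, with 66597, 76963, 35515 and 27902 CPM. Of the 10, 2 were higher and 4 lower in Gbp5-high cells in all 4 libraries. Il1b, which is not on that list and is not used here as a neutrophil marker, had a UMI in 98.6% to 100% of thinned Gbp5-high cells. Thinning was to 1500 UMIs, and 98.1% to 98.2% of Gbp5-low cells carried it as well. The summed level of 10 macrophage markers was 593 to 1283 CPM in Gbp5-high and 751 to 960.4 CPM in Gbp5-low neutrophils, and that of 6 monocyte markers was 33.2 to 640.2 and 192 to 625 CPM. The macrophage markers include C1qa, C1qb and C1qc, which the rule itself capped. The 8 T cell markers summed to 2.33 to 39.8 CPM, with 3 to 7 of them at 0 depending on the library. They include Cd3d, Cd3e and Cd3g, so 3 zeros were set by the rule. The B cell markers were all at 0 outside ORIN1001. A few cells carried 10 or more UMIs of another type's markers, namely 2 of 56, 17 of 373, 5 of 130 and 11 of 449 in the order vehicle, ORIN1001, docetaxel and combination. Those cells held 11.6%, 13.9%, 14.0% and 13% of all UMIs, so results that they touch are given with and without them. Without such cells the 10 neutrophil markers summed to 64836, 67702, 38878 and 28411 CPM in Gbp5-high cells. The sums in Gbp5-low cells were then 72878, 79806, 38050.1 and 31068 CPM. The 7 dendritic cell markers summed to 940.1 CPM in vehicle, against 2.33 to 91.1 CPM elsewhere.

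Gbp5-high cells made up 1.11% of neutrophils in vehicle (56 of 5039, 0.841 to 1.44%), 6.78% under ORIN1001 (373 of 5499, 6.13 to 7.48%), 3.32% under docetaxel (130 of 3917, 2.78 to 3.93%) and 15% under the combination (449 of 2989, 13.8 to 16.4%). No interval overlapped another, but the intervals cover counting error only, not differences between mice or libraries within a treatment. The share was 6.10-fold higher under ORIN1001 than in vehicle (4.60 to 8.23), 2.99-fold higher under docetaxel (2.17 to 4.16) and 13.5-fold higher under the combination (10.2 to 18.2). It was 4.53-fold higher in the combination than in docetaxel alone (3.72 to 5.55) and 2.21-fold higher than in ORIN1001 alone (1.93 to 2.55). The combination had the shallowest neutrophils, with medians of 2960, 3547, 2564 and 2209 UMIs in the 4 libraries. With each neutrophil thinned to 1500 UMIs for its Gbp5 count, the shares were 0.364%, 2.89%, 1.71% and 10.3%. This left out 343 to 609 shallower neutrophils per library, and the combination stood 28.4-fold above vehicle (17.4 to 49.5). The neutrophil markers and the upper limits were still read at each cell's own depth, so only the Gbp5 threshold was applied at equal depth. Without the cells holding another type's markers the shares were 1.12%, 6.81%, 3.34% and 15.3%. Neutrophils themselves were 49.2%, 62.8%, 46.9% and 33.4% of passed cells, and Gbp5-high cells 0.547%, 4.26%, 1.56% and 5.02%.

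**Figure D1:**
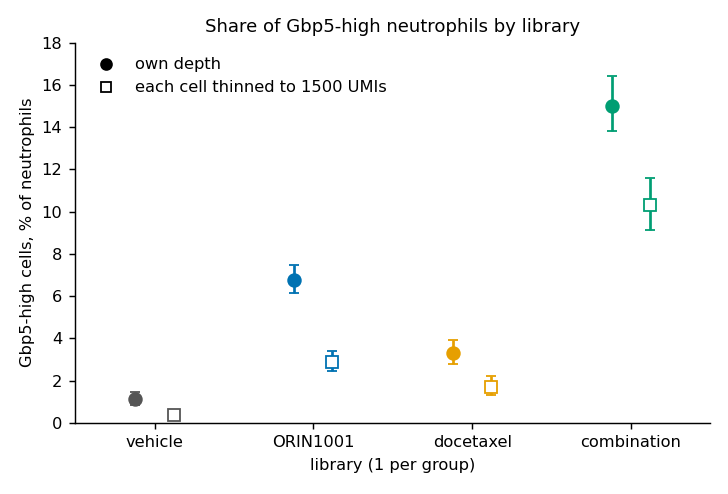
Share of neutrophils that were Gbp5-high in each library, in percent. Circles are at the cells' own depth, and squares count Gbp5 after thinning to 1500 UMIs. The other limits of the rule used each cell's own depth. Bars are exact 95% intervals. The combination stands highest at 15% and vehicle lowest at 1.11%, and the same order holds after thinning.

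The upper limits of the rule removed different parts of each library. Before them, 5.72% of neutrophils in vehicle, 18.5% under ORIN1001, 18.5% under docetaxel and 35.9% under the combination held 2 or more Gbp5 UMIs. ORIN1001 and docetaxel thus stood level at their own depth, with neutrophil medians of 3547 and 2564 UMIs. Of the cells with 2 or more Gbp5 UMIs, 77.1%, 58.9%, 81.5% and 57.8% held at least 5 Ifit and Rsad2 UMIs. Hilpda at 3 or more UMIs was held by 30.6%, 22%, 10.1% and 0.931%. The rule kept 19.4%, 36.7%, 17.9% and 41.8% of the cells with 2 or more Gbp5 UMIs. At own depth ORIN1001 thus stood above docetaxel only after the upper limits, and it held the lower share of Ifit-rich cells. Shares before the limits were not counted at equal depth. In T cells of the same libraries 4.55% to 5.71% had 2 or more Gbp5 UMIs, at median depths of 5047 to 5953 UMIs. In macrophages 2.03%, 8.15%, 9.86% and 15.9% did, at median depths of 16805.5 to 23689.5 UMIs. Neutrophils were shallower than both, so these shares are not at like depth.

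Exactly 2 UMIs were held by 60.7% of Gbp5-high cells in vehicle and by 38.3% to 40.0% in the other libraries, and the highest count was 5, 27, 22 and 19. The level of Gbp2 in cells with 0, 1, 2 and 3 or more Gbp5 UMIs was 50.9, 157, 579 and 711 CPM in vehicle, 273, 581, 834 and 1629 under ORIN1001, 94.9, 311, 679 and 945 under docetaxel, and 450.1, 836, 1229.7 and 1887 under the combination. Gbp2 rose from bin to bin in every library, but other genes did not all do so. Cxcl10 in the same bins stood at 77.0, 249.8, 81.4 and 1822 CPM under docetaxel, Il1rn at 880.1, 1540.1, 1535 and 1159.9 CPM in vehicle, and Tnfaip2 at 909, 1443, 1350.5 and 2139.5 CPM under the combination.

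Of the 5 markers given for these cells, Tnfaip2 and Marcksl1 were called higher in all 4 libraries than in Gbp5-low neutrophils. Gbp5 itself, on chromosome 3, stood at 717, 913, 1089 and 1388 CPM against 13.2, 36.4, 33.6 and 104 CPM, which the rule set. Tnfaip2, a TNF-inducible gene, stood at 1714, 1733, 1769.9 and 1853 CPM against 802, 897, 879 and 1031 CPM, a log2 ratio of 1.10, 0.95, 1.0 and 0.85. Marcksl1, which encodes a membrane and actin-associated protein, stood at 5901, 4030.1, 4859.7 and 4291 CPM against 2785, 2418, 2861 and 2716 CPM. Il1rn, the interleukin-1 receptor antagonist gene, was higher by 0.59, 0.49, 0.24 and 0.31 on the log2 scale and did not reach 1.5-fold in every library. Its level moved more between libraries, from 1372 and 1200.1 CPM in vehicle and ORIN1001 to 2218 and 3061 CPM in docetaxel and the combination. Cxcr4, the receptor gene for CXCL12, did not mark the cells: its log2 ratios were -0.09, 0.12, 0.23 and 0.08, and only in ORIN1001 and docetaxel did the interval leave out 0.

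In all, 71 of 7284 genes were called higher in Gbp5-high than in Gbp5-low cells in all 4 libraries (0.975%), and 3 were called lower (0.0412%). The rule used this contrast, so the counts describe the classes. Cxcl10, whose product draws T cells through CXCR3, led with 1348, 986, 1224 and 1126 CPM against 47.7, 101, 94.7 and 143 CPM. Its log2 ratio was 4.82 (4.60 to 5.04) in vehicle, 3.28 (3.16 to 3.40) under ORIN1001, 3.69 (3.52 to 3.87) under docetaxel and 2.97 (2.82 to 3.13) under the combination. Not every cell carried it. At 1500 UMIs per cell Cxcl10 was detected in 28.8%, 28.9%, 25.6% and 34.2% of Gbp5-high cells, in 4.75% to 10.8% of Gbp5-low cells and in 2.70% to 7.79% of T cells. Thinning left out 4, 10, 9 and 66 Gbp5-high cells, and at their own depth 18 of 56, 151 of 373, 39 of 130 and 184 of 449 carried Cxcl10. Gbp5-high cells had medians of 2865, 3760, 2965.5 and 2274 UMIs and Gbp5-low cells of 2716.5, 3140.5, 2339 and 1978.5. Of the Cxcl10 UMIs of Gbp5-high cells in vehicle, 35.6% came from 1 cell.

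The GBP genes Gbp2b, Gbp2, Gbp3 and Gbp7 and the GTPase gene Ifi47 were among the 12 leading genes. Gbp2 stood at 636, 1297, 853 and 1649 CPM against 55.8, 317, 117 and 538 CPM, and was detected in 44.2%, 69.7%, 58.7% and 77.8% of Gbp5-high cells thinned to 1500 UMIs, against 6.62%, 26.4%, 12.3% and 42.1% of Gbp5-low cells and 17.5% to 24.7% of T cells. Without thinning the shares in Gbp5-high cells were 64.3%, 85.3%, 75.4% and 87.5%. Cd274, the gene of the checkpoint ligand PD-L1, stood at 366, 473, 562 and 789 CPM against 88.4, 206, 166 and 302 CPM, with log2 ratios of 2.05, 1.20, 1.76 and 1.38. It was detected in 30.8%, 46.0%, 45.5% and 57.4% of thinned Gbp5-high cells, 8.98%, 19.9%, 16.8% and 29.3% of Gbp5-low cells, and 6.34% to 12.4% of T cells, and in 55.4%, 70.5%, 63.1% and 71.9% of Gbp5-high cells without thinning. The other leading genes were Icam1, an adhesion molecule gene with ratios of 2.02, 1.47, 1.41 and 1.33, Sod2, the mitochondrial superoxide dismutase gene, the adaptor gene Tifa, Clic4 and the receptor gene Gpr132. Reads of Gbp2b and Gbp2 may be split, since the sequences of GBP genes are close. The ratio was largest in vehicle in 9 of these 12 genes and smallest in the combination in 11, and Cd274 was the exception to the latter.

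**Figure D2:**
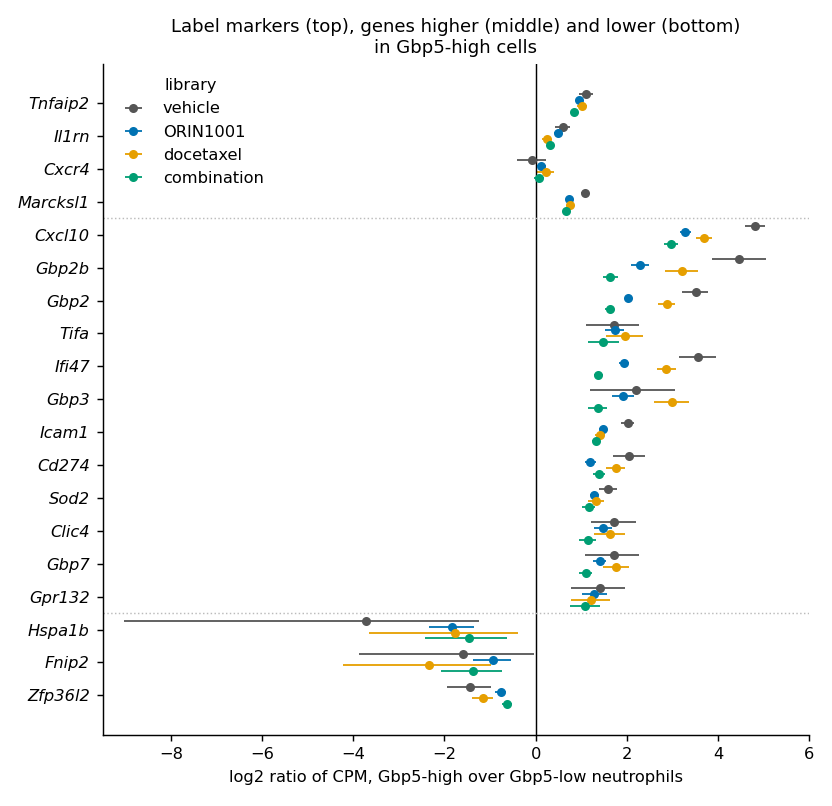
Log2 ratio of CPM in Gbp5-high over Gbp5-low neutrophils per library, for 4 label markers, the 12 leading genes called higher and the 3 called lower; bars are exact 95% intervals. Cxcr4 lies near 0 in every library, and Cxcl10 lies between 2.97 and 4.82.

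The 3 lower genes were Hspa1b, a heat-shock protein gene, Fnip2, and Zfp36l2, an mRNA-decay factor gene that stood at 185, 374, 378 and 634 CPM against 504, 638, 839 and 982 CPM. Hspa1b and Fnip2 rested on 1 to 53 UMIs per library in Gbp5-high cells. Without the cells holding other types' markers 75 genes were called higher, 66 of them shared, and 8 lower. With Gbp5-low cells matched on total UMIs, 45 were called higher. Against all other neutrophils, Ifit-high and Hilpda-high cells included, 31 were called higher, of which 24 were among the 71.

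By gene list, the interferon-gamma response and NF-kappaB lists had the largest shares of genes called higher in all 4 libraries. No MHC class II gene was called higher in all 4. Of 19 tested genes on the interferon-gamma response list, 16 were called higher in all 4 libraries and 0 were called lower. Over all genes these shares were 0.975% and 0.0412%. The list had 18 genes with a ratio above 0 in all 4 libraries. Its medians were 2.11, 1.47, 1.76 and 1.0 on the log2 scale, against -0.13, -0.04, -0.18 and -0.12 over all genes. The called genes included Irf1 at 774, 1521, 1014 and 1409 CPM against 236, 604, 348 and 698 CPM. Along the receptor chain, Irf1 and Socs1, the last a feedback inhibitor of JAK kinases, were higher, while the receptor genes Ifngr1 and Ifngr2 and the kinase genes Jak1 and Jak2 were not called, with ratios between -0.57 and 0.33. Some members were sparse: Cxcl9 was found in 1.92% to 7.83% of cells thinned to 1500 UMIs and in 1.79% to 8.69% at their own depth, and Ido1 had 0 UMIs in all 4 libraries.

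Of 21 MHC class I genes, 3 were called higher in all 4 libraries (H2-Q4, Tap1 and Tapbpl), with list medians of 1.03, 0.68, 0.93 and 0.35. Over all genes 0.975% were called higher. A ratio above 0 in all 4 libraries was found for 18 of the 21, and a ratio below 0 in all 4 for 0. Tap1, a subunit of the peptide transporter, stood at 214, 401, 354 and 504 CPM against 63.0, 173, 109.8 and 278 CPM, whereas H2-K1 had ratios of 0.82, 0.25, 0.46 and 0.17. Of 25 type I interferon genes outside the rule, 4 were called (Ifi47, Ifih1, Cmpk2 and Parp14), with medians of 0.64, 0.51, 0.56 and 0.37. Most of this list also lay higher, with 20 genes above 0 and 0 below 0 in all 4 libraries. Both classes had to pass the limit on Ifit and Rsad2 counts. Of 7 MHC class II genes, 0 were called higher and 0 lower in all 4 libraries, with medians of -0.69, 0.28, -0.07 and -1.97. Without the cells holding other types' markers, 3 of 5 were called lower and 0 higher, with medians of -0.79, -0.96, -1.22 and -1.70. Over all genes 75 were then called higher and 8 lower.

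Of 19 tested NF-kappaB and TNF genes, 10 were called higher in all 4 libraries and 18 had a ratio above 0 in all 4. Their medians were 0.86, 0.74, 0.69 and 0.71. Tnf stood at 1329, 1074, 676 and 597 CPM against 689, 523, 419 and 345 CPM, and Relb, Nfkb2, Bcl3, Nfkbie and Tnip1 were also called. Of 13 interleukin-1 and inflammasome genes, 3 were called: Nlrp3, Casp4 and Il18bp, the gene of an interleukin-18 binding protein. Il1b did not differ by 1.5-fold, with 17325, 13350.5, 14192 and 12467 CPM against 15978, 13674, 13554 and 11316 CPM. Acod1, the itaconate-producing enzyme, stood at 3195, 2858, 2395 and 2524 CPM against 1279.7, 1377, 888 and 1089 CPM, and it and Cd274 were the 2 called of 9 tested immunosuppressive genes. Cybb was the single granule or NADPH oxidase gene called, Fas the single survival or death gene, and Cxcl10 the single chemokine. None of 16 tested hypoxia and glycolysis genes and none of 22 XBP1s and chaperone genes was called in all 4 libraries. Over all genes 0.975% were called higher and 0.0412% lower, so counts of 0 in lists of this size do not set them apart. The hypoxia list had 9 genes lower and 0 higher in all 4 libraries. Its medians were -0.44, -0.19, -0.14 and -0.22, against -0.13, -0.04, -0.18 and -0.12 over all genes. The XBP1s list had 2 higher and 1 lower. Siglecf, a marker of a tumour neutrophil state, had 185, 166, 184 and 155 CPM against 219, 210.2, 253 and 174 CPM.

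The Gbp5-high class differed from Ifit-high neutrophils, which hold 5 or more Ifit and Rsad2 UMIs and which the rule set apart. Icam1 stood at 2364, 1417, 2026 and 1518 CPM in Gbp5-high and 489.7, 496, 761 and 793 CPM in Ifit-high cells. Irf1 stood at 774, 1521, 1014 and 1409 CPM against 337, 625, 527 and 1028 CPM. Isg15, a ubiquitin-like type I interferon target, went the other way, with 2369, 2704, 3255 and 4137 CPM against 6546, 6687, 8470.0 and 9809.8 CPM. Cxcl10 was also lower in Gbp5-high cells in all 4 libraries, with 1956, 1901, 3359 and 3702 CPM in Ifit-high cells, and Gbp2 stood there at 529.9, 942, 946 and 1555 CPM, less than 1.5-fold from its level in Gbp5-high cells. Cd274 was higher in Ifit-high cells in 3 of 4 libraries, with 634, 976, 652 and 608 CPM against 366, 473, 562 and 789 CPM. In Hilpda-high cells, those with 3 or more Hilpda UMIs, it stood at 508, 947, 566 and 419 CPM, the last from 14 cells.

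Between libraries, the transcripts within Gbp5-high cells differed as well. For ORIN1001 over vehicle 310 of 5226 genes were called higher (5.93%) and 184 lower (3.52%), for docetaxel over vehicle 239 of 2244 (10.7%) and 92 (4.10%), and for the combination over vehicle 513 of 4659 (11.0%) and 265 (5.69%). The combination over docetaxel gave 287 of 4655 (6.17%) and 195 (4.19%), and the combination over ORIN1001 gave 542 of 5423 (9.99%) and 412 (7.60%). Centred on the median gene, the first 3 contrasts gave 204 higher and 268 lower, 154 and 146, and 350 and 397, so lower calls outnumbered higher ones for ORIN1001 and the combination, and the excess for docetaxel shrank. Without the cells holding other types' markers the 5 contrasts gave 223 and 134, 166 and 64, 411 and 226, 201 and 163, and 437 and 421. The 3 contrasts with vehicle share its 56 cells and 210626 UMIs, so each is given by its own values. The treated libraries had 1635675, 428835 and 1232468 UMIs in this class. A gene was tested only when its higher sum held at least 30 UMIs, which took a higher CPM in vehicle. Genes high in vehicle thus entered less easily, and the balance of higher and lower calls over vehicle cannot be read as a direction. With genes of 1 or more UMIs, lower calls rose to 427, 301 and 500. Higher calls for docetaxel rose to 372.

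The median interferon-gamma response gene stood higher in every treated library than in vehicle. Called higher were 15 of 24 tested for ORIN1001, 10 of 20 for docetaxel and 19 of 24 for the combination. Over all genes the shares called higher were 5.93%, 10.7% and 11.0%. The list had median log2 ratios of 1.0, 0.66 and 1.44. Called lower were 2, 1 and 2, namely Irf8 in all 3 and Icam1 in ORIN1001 and the combination, and 1 cell held 90.0% of the vehicle UMIs of Irf8. Without the cells holding other types' markers the medians were 1.09, 0.64 and 1.56. With no upper limits in the rule the ORIN1001 median was 0.27. The combination was called higher than docetaxel in 14 of 24 genes and lower in 0 (median 0.81, and 0.42 with no upper limits), and higher than ORIN1001 in 13 of 25 and lower in 1, Nos2 (median 0.60), beside backgrounds of 6.17% and 9.99% called higher. The rule kept only Gbp5-positive cells, and the shift was larger in Gbp5-low cells, with medians of 1.70, 1.02 and 2.85 over vehicle.

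Among these genes, Gbp4 stood at 61.7 CPM in vehicle, 199 under ORIN1001, 60.6 under docetaxel and 359 under the combination. The vehicle value rested on 13 UMIs in 4 cells and the docetaxel value on 26 UMIs in 15 cells, and in Gbp5-low cells Gbp4 stood at 6.37, 34.6, 16.1 and 173 CPM. Igtp and Irgm1, immunity-related GTPases, stood at 189.9, 523, 438 and 906 CPM and at 199, 441, 396 and 859 CPM. Tgtp2, another GTPase gene, had 1 UMI in vehicle, 160 under ORIN1001, 36 under docetaxel and 317 under the combination, and its log2 ratio of combination to vehicle was 5.76 (3.27 to 11.07). Its reads may be shared with Tgtp1, a near-identical neighbour, which stood at 23.7, 148, 121 and 329 CPM. Irf1 was highest in ORIN1001, where it was 0.97 above vehicle (0.75 to 1.21), and 0.86 above in the combination (0.63 to 1.11).

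MHC class I genes were called higher than vehicle in 7 of 21 for ORIN1001, 6 of 19 for docetaxel and 14 of 21 for the combination, with 0 called lower. Over all genes 5.93%, 10.7% and 11.0% were called higher, which is also the background of the type I interferon counts below. H2-K1 stood at 2549.5, 4142, 3073 and 4086 CPM. A single vehicle cell held 23.2% of that library's B2m UMIs. Without the cells holding other types' markers the calls were 14 of 21, 8 of 18 and 18 of 21. The background was then 4.81%, 8.77% and 10.2% of all genes. The MHC class I medians changed from 0.34, 0.32 and 0.70 to 0.72, 0.48 and 1.12. Type I interferon genes outside the rule were called higher than vehicle in 11 of 23, 16 of 22 and 22 of 25, with medians of 0.61, 0.85 and 1.30, and lower in 1, 0 and 0. Once cells holding other types' markers were left out, the higher calls were 8 of 23, 13 of 22 and 16 of 23, with medians of 0.49, 0.83 and 1.24. With no upper limits, which lets in the cells rich in Ifit transcripts, the medians were -0.26, 0.38 and 0.08, so the direction for ORIN1001 reversed. For the combination over docetaxel 4 of 25 were called, beside 14 of 24 of the interferon-gamma list and 6.17% of all genes called higher. Isg15 stood at 2369, 2704, 3255 and 4137 CPM.

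**Figure D3:**
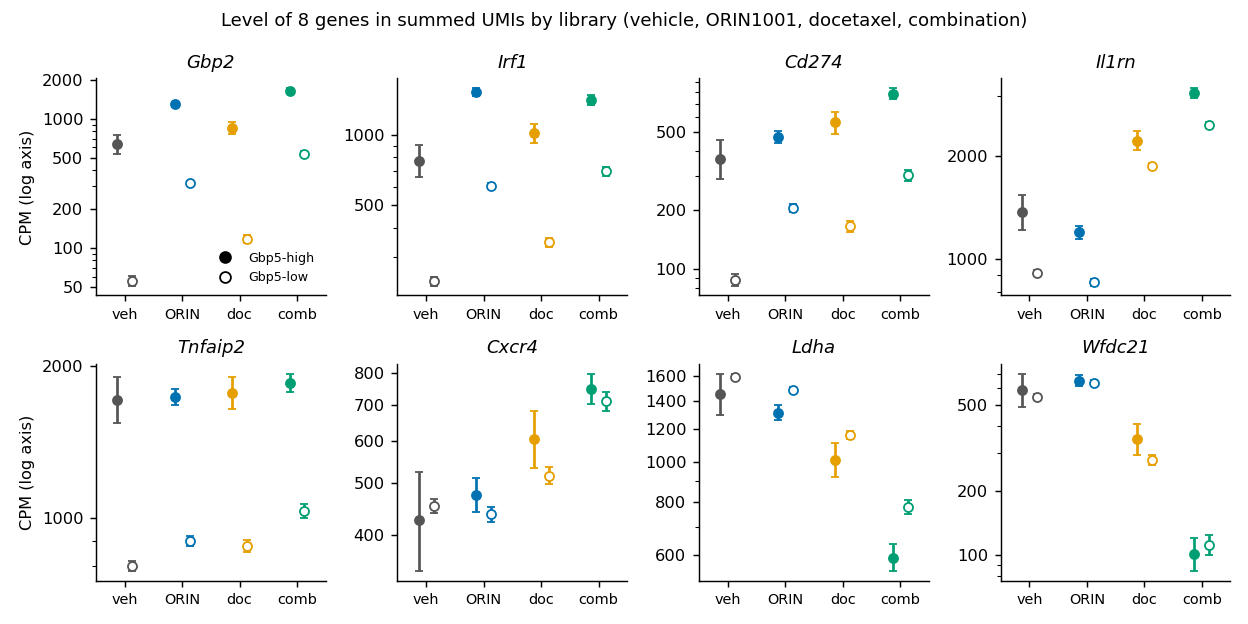
Level in CPM, on log axes, of 8 genes in Gbp5-high (filled) and Gbp5-low (open) neutrophils of the vehicle, ORIN1001, docetaxel and combination libraries; bars are exact 95% Poisson intervals. Gbp2, Irf1, Cd274 and Tnfaip2 stand higher in Gbp5-high cells in each library, and Ldha and Wfdc21 are lowest in the combination in both classes.

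NF-kappaB genes did not follow the interferon genes. Their medians were -0.27, -0.07 and -0.27 over vehicle, with 0, 1 and 1 called higher and 2, 1 and 4 called lower. Over all genes 5.93%, 10.7% and 11.0% were called higher, and 3.52%, 4.10% and 5.69% lower. Tnf was lower than vehicle by a log2 ratio of -0.98 in docetaxel (-1.22 to -0.73) and -1.15 in the combination (-1.36 to -0.95). Icam1 was lower in ORIN1001 (-0.74, -0.88 to -0.60) and the combination (-0.64, -0.78 to -0.49). Cd274 stood in contrast at 366, 473, 562 and 789 CPM, highest in the combination.

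Hypoxia and glycolysis genes were lowest in the combination. Of 16 tested genes, 13 were called lower than in vehicle, 10 lower than in docetaxel and 16 lower than in ORIN1001, with 0 called higher. The medians were -1.21, -0.70 and -1.29. Over all genes 5.69%, 4.19% and 7.60% were called lower in these contrasts. Ero1l, an endoplasmic reticulum oxidase gene, stood at 423, 433, 275 and 86.8 CPM. Ldha, the lactate dehydrogenase gene, stood at 1453, 1312, 1012 and 591 CPM, Pgk1 at 275, 378, 275 and 152 CPM, and the mitophagy gene Bnip3 at 361, 457, 273 and 127 CPM. Single drugs moved the list less, with medians of 0.11 for ORIN1001 and -0.24 for docetaxel over vehicle. The rule left out cells rich in Hilpda, itself a hypoxia target, and the same medians in Gbp5-low cells were -0.05, -0.53 and -1.21 over vehicle. With Gbp5 at 3 or more UMIs the combination stood only -0.53 from vehicle and ORIN1001 0.81 above it, on 22 vehicle cells. Without the cells holding other types' markers the 3 combination medians were -1.22, -0.81 and -1.29.

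**Figure D4:**
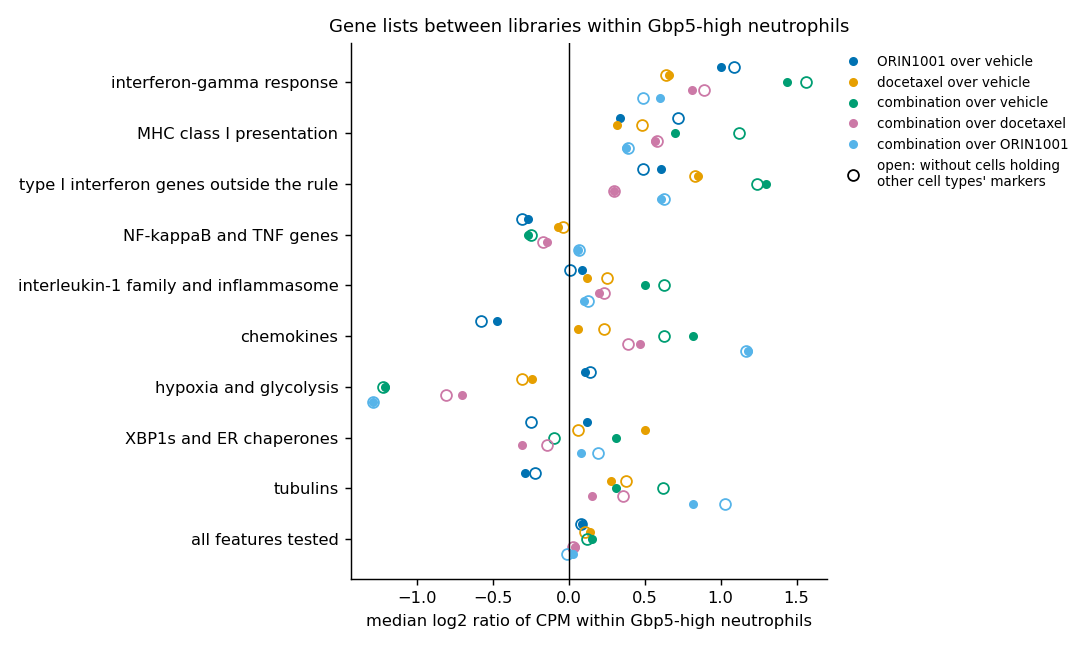
Median log2 ratio of CPM of 9 gene lists and of all genes tested, in 5 contrasts between libraries within Gbp5-high neutrophils, with all cells (filled) and without the cells holding other cell types' markers (open). Interferon-gamma response lies right of 0 in all 5 contrasts, and hypoxia and glycolysis lies at -1.21, -0.70 and -1.29 for the 3 contrasts of the combination.

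Several secreted and inflammatory genes had lower summed levels in both libraries with docetaxel than in vehicle and ORIN1001. Saa3, an acute-phase serum amyloid gene, stood at 3656, 3221, 1028 and 442 CPM, and was higher in Gbp5-high than in Gbp5-low cells by 1.37, 1.40, 0.83 and 0.52. Wfdc21 stood at 589, 652, 347 and 101 CPM, and Nos2, the inducible nitric oxide synthase gene, at 85.5, 95.4, 30.3 and 14.6 CPM. In the combination over ORIN1001 their log2 ratios were -2.86 (-2.99 to -2.74), -2.68 (-2.96 to -2.42) and -2.71 (-3.50 to -2.0). Nos2 was detected in 11.5%, 11.0%, 6.61% and 2.09% of thinned Gbp5-high cells. The vehicle interval (4.35 to 23.4%) overlapped that of docetaxel (2.90 to 12.6%). The stefin genes Cstdc5 and Stfa2, which encode cysteine protease inhibitors, stood at 275, 976, 67.6 and 51.9 CPM and at 152, 386, 2.33 and 8.93 CPM. Of the vehicle UMIs 1 cell held 84.5% for Cstdc5 and 90.6% for Stfa2, so their levels cannot be set against vehicle. Stefin genes also have near-identical neighbours. In the combination over ORIN1001 they were lower by -4.23 (-4.62 to -3.87) and -5.44 (-6.45 to -4.59), with 137 and 88 ORIN1001 cells carrying them. These 5 genes were also called lower in Gbp5-low cells in that contrast, with ratios of -1.99, -2.51, -3.75, -3.64 and -3.86, and held without the cells of other types' markers.

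Chemokine genes were often higher in the combination than in ORIN1001. Of 13 chemokines, 8 were called higher in the combination than in ORIN1001, with a median of 1.18. Without the cells holding other types' markers 7 of 10 were, with a median of 1.17. Over all genes 9.99% were called higher in this contrast, and 9.17% without those cells. The survival counts below have the same background. Ccl4 stood at 1258, 677, 1047 and 3488 CPM, Ccl3 at 1363, 965, 1733 and 2404 CPM, and Cxcl2, a ligand of CXCR2, at 12093, 6594, 13164 and 14962 CPM, each lowest in ORIN1001. Of 15 survival and death genes 3 were called higher in the combination than in ORIN1001 and 0 lower, with a median of 0.41: the BCL2-family genes Bcl2a1a, Bcl2a1b and Bcl2a1d, near-identical copies that share reads. Bcl2a1b stood at 1130, 553, 1262 and 1352 CPM. Il1rn was 1.35 above ORIN1001 in the combination (1.27 to 1.43). The tubulin list was called higher in 7 of 7 genes for the combination over ORIN1001, with a median of 0.82. Over vehicle it was 1 of 7 and over docetaxel 2 of 7, with medians of 0.31 and 0.15. The shares over all genes were 9.99%, 11.0% and 6.17%. Leaving out the cells with other types' markers, the tubulin counts were 7, 4 and 2 of 7, with medians of 1.03, 0.62 and 0.36. The shares over all genes were then 9.17%, 10.2% and 4.98%. Tubb4b stood at 133, 129.6, 161 and 296 CPM in Gbp5-high and 137, 129, 183 and 300.3 CPM in Gbp5-low cells, so the classes lay together.

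Of the XBP1s and endoplasmic reticulum chaperone genes, the pathway downstream of the ORIN1001 target, few were called, and so it was over all genes. Over all genes in Gbp5-high cells 5.93% were called higher and 3.52% lower in ORIN1001 over vehicle. In the combination over docetaxel these shares were 6.17% and 4.19%. The list counts with all Gbp5-high cells do not set the list apart from them. In ORIN1001 over vehicle 12 of 21 had a ratio above 0 and 9 below, with 1 called higher, 1 called lower and a median of 0.12. In the combination over docetaxel 17 of 20 lay below 0, with 0 called higher, 1 called lower and a median of -0.31. In Gbp5-low cells 22 of 22 lay at or below 0 in ORIN1001 over vehicle, with 2 called lower and a median of -0.24, and 13 of 22 lay below 0 in the combination over docetaxel, with a median of -0.05. Hspa5, the main chaperone gene of the compartment, stood at 650.4, 597, 729.9 and 647 CPM, and total Xbp1, which does not tell spliced from unspliced mRNA, at 223, 342, 452 and 349 CPM. When cells holding other types' markers were left out, 13 of 19 and 11 of 17 Gbp5-high ratios lay below 0, with medians of -0.25 and -0.14. Called higher were 0, and called lower 2 and 0. Over all genes 4.81% and 4.98% were then called higher, and 2.89% and 4.04% lower.

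A pair of sparse genes was found mostly in the combination within the class. Edn1, the endothelin-1 gene, had 1, 6, 8 and 129 UMIs, in 1, 5, 4 and 37 cells, and its log2 ratio of the combination to ORIN1001 was 4.83 (3.67 to 6.31). Bcl2l15, a BCL2-like gene, had 0, 1, 4 and 67 UMIs, in 0, 1, 4 and 50 cells, with a ratio of 6.47 (3.95 to 11.80). Both also stood higher in Gbp5-low cells of the combination, by 5.70 and 3.18.

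Other extreme ratios rested on few cells. Ccr7, which had the lowest ratio in ORIN1001 over vehicle (-9.71), and Fscn1 were dendritic cell markers carried by the 2 vehicle cells with such markers. Ccl2 stood 4.76 above vehicle in ORIN1001, where 1 cell held 52.4% of its UMIs, and Fgf4 6.39 above ORIN1001 in the combination, where 1 cell held 95.2%. Ly6c2, a monocyte marker, stood 4.60, 4.97 and 5.16 above 2 vehicle UMIs, and only 9.38% to 16.2% of treated cells carried it.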

How the data were processed

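CD45+ cells of 4 treatment groups were profiled in 4 single-cell libraries, 1 per group. The deposited values are unnormalized UMI counts for 32285 features in each barcode. Per the file headers they were written by Cell Ranger 5.0.1, and the submitters' processing notes name mm10 and Seurat 4.0.1. The gene annotation behind the counts is not given in the sources used here.

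Cells were taken by the count rule in the report, with no removal of doublets (Scrublet in scanpy 1.11.5 was an alternative that took out 2, 14, 6 and 9 Gbp5-high cells). Each class's UMIs were added up within a library and scaled to their total to give CPM. Genes with at least 30 UMIs in the higher sum were tested for size, 0 counts were set to 3 counts in ratios, and 23 genes of the rule were left out. Detection shares used cells thinned to 1500 UMIs (seed 1). Pairs of libraries shared 95 to 128 barcodes. The named genes were the 5 label markers, the 12 leading genes in each direction against Gbp5-low cells, the 6 in each direction per contrast with at least 50 CPM, and up to 4 genes per list, without predicted genes or those of mitochondria, ribosomes, haemoglobin and antigen receptors. Further genes of the lists were named after their values were seen. Values of 1 list gene are not reported here. There were 20 gene lists and 11 marker lists. Members and lists were chosen with earlier results of these data known. The scripts were tested on simulated data. Gene positions came from GENCODE by Ensembl identifier. Python 3.11.15, numpy 2.4.6, scipy 1.17.1, pandas 2.3.3 and matplotlib 3.10.9 were used.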

Additional observations from a re-analysis of the deposited data

Results flagged for a closer look

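Within Gbp5-high cells, 8 pairs of called log2 ratios pointed in opposite directions with and without the cells holding other cell types' markers, of 32 found with all cells. None of these differences was tested. Ddit4 was 0.65 in ORIN1001 over vehicle and -0.67 in the combination over docetaxel. Ccl4 was -0.89 in ORIN1001 over vehicle and 1.74 in the combination over docetaxel. Prickle3 was 2.40 and -0.83 in the same contrasts, on 2 vehicle UMIs. Car4 was 3.72 in ORIN1001 over vehicle against -2.25 in the combination over docetaxel, and 4.22 in docetaxel over vehicle against -1.74 in the combination over ORIN1001. Vehicle held 1 Car4 UMI, and 1 docetaxel cell held 63.2% of that library's. Retnlg, a neutrophil granule gene, was 1.47 in ORIN1001 over vehicle against -2.86 in the combination over docetaxel, and 1.89 in docetaxel over vehicle against -2.44 in the combination over ORIN1001. In Gbp5-low cells its docetaxel to vehicle ratio was -0.97, and 1 Gbp5-high docetaxel cell held 92.5% of the UMIs there. The other 24 pairs did not hold without those cells.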

How the results depend on the processing

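No paired analysis was possible because each group held 1 library. Log2 share ratios kept their direction. For ORIN1001 over vehicle they were 3.23 with Gbp5 at 3 or more UMIs, 1.69 with no upper limits and 1.83 with 1 or more UMIs. For docetaxel over vehicle they were 2.19 with 3 or more UMIs and 2.23 thinned. For the combination over vehicle they were 4.41 with 3 or more UMIs, 2.65 with no upper limits, 2.93 with 1 or more and 4.83 thinned. For the combination over docetaxel they were 0.96 with no upper limits, 1.69 with 1 or more UMIs and 2.60 thinned, and over ORIN1001 1.84 thinned. The 71 genes higher in Gbp5-high cells became 201 with no upper limits, 108 centred on the median gene, 45 matched on UMIs and 31 against all other neutrophils. Leaving out 1 library gave 72 to 112, the latter without the combination. The 3 lower genes became 26 with no upper limits, 11 by the mean over cells, 1 centred, 8 without cells of other types' markers, 7 matched and 32 against all other neutrophils, and 7 to 12 without 1 library, the most without vehicle.

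Between libraries, ORIN1001 over vehicle gave 204 higher genes centred, and 378 lower with no upper limits and 427 with genes of 1 or more UMIs. Docetaxel over vehicle gave 730 higher with no upper limits, 372 with 10 or more and with 1 or more UMIs and 154 centred, and 256, 191, 301 and 146 lower. The combination over vehicle gave 335 higher with Gbp5 at 3 or more UMIs and 1339 with no upper limits, and 454 lower with no upper limits and 500 with 1 or more UMIs. The combination over docetaxel gave 454 higher and 313 lower with no upper limits, and 322 lower with 1 or more UMIs. The combination over ORIN1001 gave 1793 higher with no upper limits, 839 with 10 or more and 963 with 1 or more UMIs.

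With no upper limits the interferon-gamma medians were 0.27 for ORIN1001 over vehicle and 0.42 for the combination over docetaxel, and the hypoxia medians -0.84 for docetaxel over vehicle, -1.80 for the combination over vehicle and -1.61 over ORIN1001. With Gbp5 at 3 or more UMIs hypoxia was 0.81, 0.24 and -0.53 over vehicle for ORIN1001, docetaxel and the combination. Type I interferon genes reversed to -0.26 for ORIN1001 over vehicle with no upper limits. MHC class II genes reversed for ORIN1001 over vehicle to -0.72 with Gbp5 at 3 or more UMIs, -0.34 with no upper limits, -0.45 by the mean over cells and -0.66 without cells of other types' markers, and for the combination over docetaxel to 0.31, 0.40 and 0.68 under the last 3. The cause was not tested. The removal of cells with other types' markers was chosen after seeing the data. The 56 vehicle cells and 210626 UMIs limit every contrast with vehicle.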
